A study of Rattus norvegicus with 8 samples.

Results

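The cathepsins B, C, D, H, K, L and S and the protease inhibitor cystatin C were followed in the healing medial collateral ligament of the rat knee. The 8 genes, of 4737 named by a single symbol, were represented by 12 of the 8799 probe sets of the array, chosen as every probe set whose only gene symbol was Ctsb, Ctsc, Ctsd, Ctsh, Ctsk, Ctsl, Ctss or Cst3. The 8 arrays, all one-colour oligonucleotide arrays, formed 4 groups of 2, and ligaments were taken from all rats at 3 weeks. The loaded control rats had sham surgery and bore weight on their hind legs. In the loaded healing rats the ligament was disrupted on both sides and the legs bore weight. The unloaded control rats had no sham surgery and were suspended by the tail, which lifts the hind legs off the ground. The unloaded healing rats had both ligaments disrupted and were suspended from 24 h after surgery. The labels name no strain, sex or age. Nor do they say if a group's arrays are separate animals, pools or repeats, so every p-value measures only the spread between arrays, which may be technical.

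Cathepsins are proteases that work mainly in the acid interior of lysosomes. Cathepsins B, C, H, K, L and S are cysteine proteases of the papain family, whereas cathepsin D is an aspartic protease. Cathepsin K cleaves the triple helix of fibrillar collagen and is best known from the osteoclast, and cathepsin S cuts the invariant chain during antigen presentation in macrophages and other antigen-presenting cells. Cystatin C, encoded by Cst3, is a secreted inhibitor that binds cysteine cathepsins outside the cell. In a ligament, these enzymes are among those that can degrade collagen, elastin and proteoglycans during repair.

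Ctsk and Ctss lie near each other in the rat genome, and both were higher in loaded healing ligament, so the stretch before each gene is shown. On chromosome 2 of RefSeq assembly GRCr8, 1 other protein-coding gene, LOC134485802, is annotated between them. The windows cover the 250 bases before the annotated start, and that of Ctsd is also shown because it was the only 1 of the 7 member promoters searched to hold the lysosomal E-box. Capitals mark motif matches.
Ctsk, chr2:185747298-185747547, + strand: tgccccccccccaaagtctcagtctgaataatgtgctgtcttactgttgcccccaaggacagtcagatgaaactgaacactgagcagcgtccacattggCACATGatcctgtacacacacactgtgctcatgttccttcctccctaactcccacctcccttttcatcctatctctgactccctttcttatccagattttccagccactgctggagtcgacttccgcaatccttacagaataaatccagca
Ctss, chr2:185775146-185775395, + strand: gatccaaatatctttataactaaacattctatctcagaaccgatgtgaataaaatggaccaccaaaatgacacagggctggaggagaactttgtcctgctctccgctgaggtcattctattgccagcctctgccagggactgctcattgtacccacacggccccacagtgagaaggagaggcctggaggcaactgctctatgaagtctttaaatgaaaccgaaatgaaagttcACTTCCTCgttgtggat
Ctsd, chr1:206968822-206969071, - strand: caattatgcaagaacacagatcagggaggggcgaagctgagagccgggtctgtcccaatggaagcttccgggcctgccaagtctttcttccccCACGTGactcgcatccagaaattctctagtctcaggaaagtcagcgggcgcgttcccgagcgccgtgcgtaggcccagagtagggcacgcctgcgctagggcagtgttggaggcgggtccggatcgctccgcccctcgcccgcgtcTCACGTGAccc
The motifs were searched on both strands in the promoters of 7 of the 8 genes. The capitals in Ctsd mark CACGTG, the E-box core bound by factors of the MITF and TFEB family, at 157 and 10 bases before the start. The second match stands inside TCACGTGA, a form of the lysosomal gene motif, which starts 11 bases before the gene. CACGTG was held by 5.59% of 33469 promoters of the same length and TCACGTGA by 0.657%. The capitals in Ctsk mark CATGTG, an E-box form also bound by MITF, on the opposite strand at 151 bases before the start, and 12.1% of promoters held it. The capitals in Ctss mark GAGGAAGT, a site form of the myeloid factor PU.1, on the opposite strand at 17 bases before the start, and 2.04% of promoters held it. GAGGAAGT was also in the Ctsc promoter, on the opposite strand at 248 bases before the start, so 2 of the 7 held it. CATGTG and GAGGAAGT were added, and the Ctsd window chosen for printing, after values were seen. The arrays did not measure binding at any of these sites.

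Several features of the arrays bear on the values that follow. The deposited signals had been scaled between arrays, with a 2% trimmed mean of 500.3 to 500.6 on every array and medians of 238.7 to 315.9. The 2 unloaded control arrays stood apart. Their Pearson correlation with the other 6 arrays, on log2 signal after adding the offset of 45.8 described next, was 0.695 to 0.757 across probe sets, against 0.822 to 0.894 among those 6. Their actin 5'/3' control ratio was 0.964 and 0.634, against 0.237 to 0.529 elsewhere. The 3' actin control was dim on the 2 loaded healing arrays (1353.1 and 1596.6) and the unloaded controls (1283.9 and 1493.7), against 4393.3 to 5235.2 elsewhere. The 3' GAPDH control was dimmest on the loaded healing arrays, at 1038.5 and 842.6, against 1871.8 to 2334.6 elsewhere. Comparisons were made on log2(signal + 45.8) with limma, over the 5244 probe sets left after the dimmest 40% were removed, with a threshold of 0.05 on the Benjamini-Hochberg adjusted p. Of the 12 member probe sets, 9 passed that filter. The 3 others, both for Ctsc and 1 for Ctsl, have their differences from the same model without the filter and are not counted as tested. Signals of different probe sets are not on a common scale, so each is compared only with itself across arrays.

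**Figure D1:**
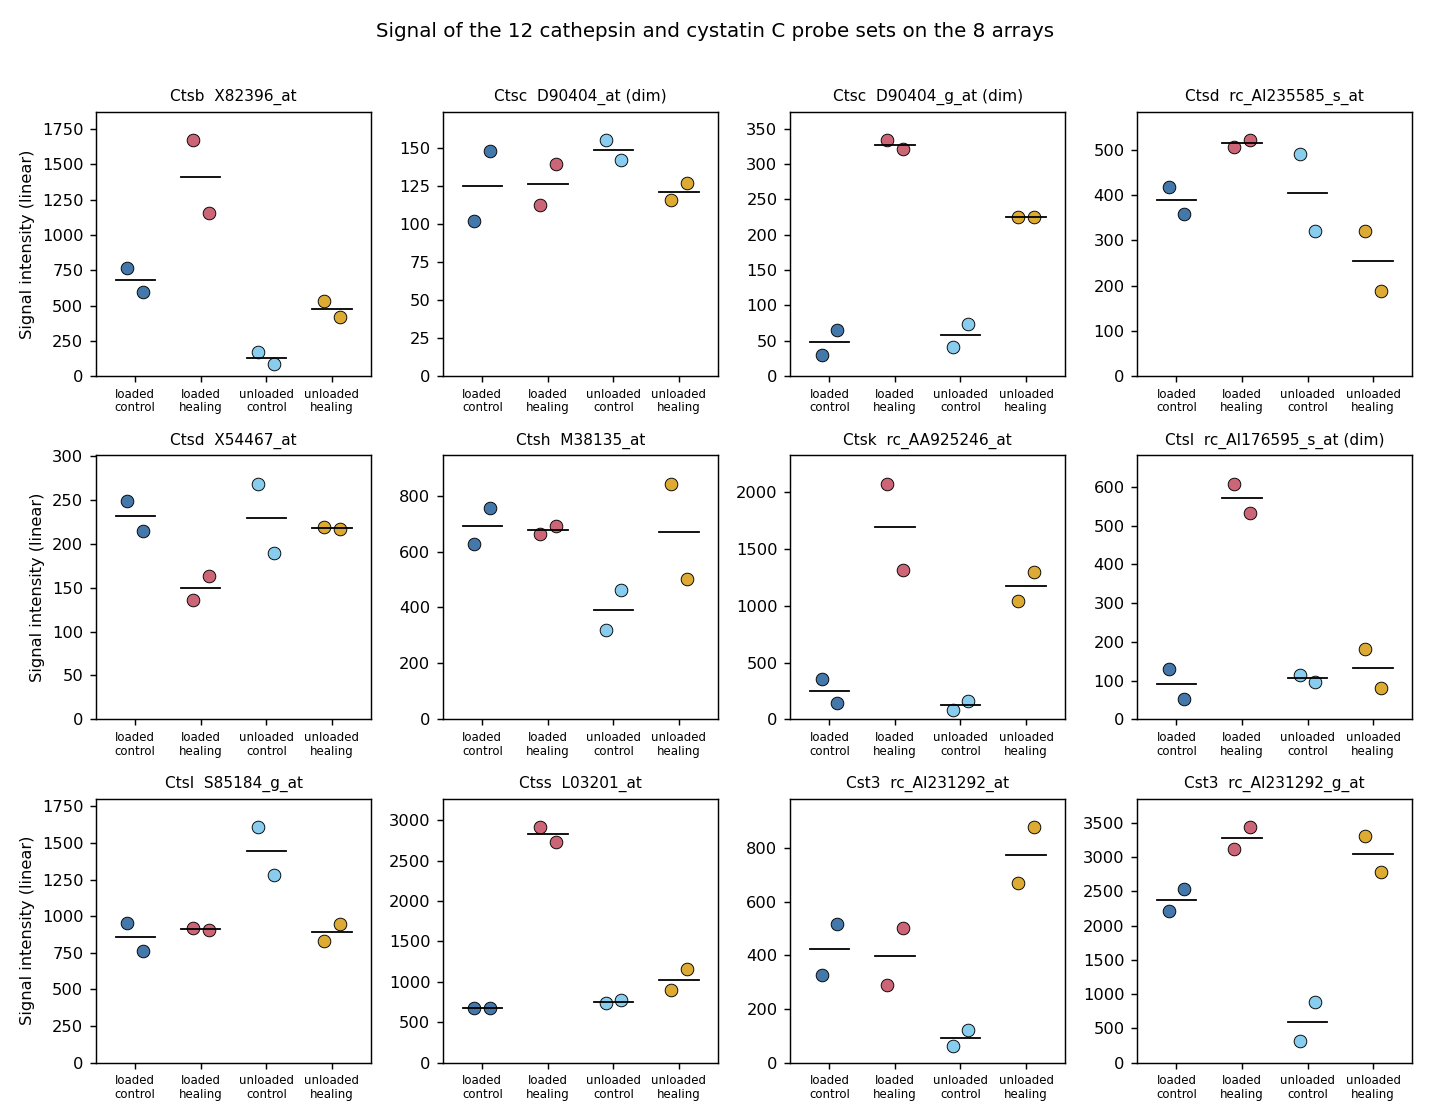
Signal intensity (linear axis from 0) of the 12 member probe sets on each of the 8 arrays, with 1 panel per probe set and 1 point per array, by group, and a bar at the mean of the 2 arrays. Ctss read 2917.4 and 2735.8 on the loaded healing arrays, above its range of 673.1 to 1159.7 on the other 6. Ctsk, and the dim Ctsc set D90404_g_at, read higher on all 4 healing arrays than on all 4 control arrays.

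With injury in weight-bearing rats Ctsk and Ctss rose, and no other tested member passed the threshold. In loaded healing against loaded control, 2 of the 9 tested member probe sets rose and 0 fell, beside 2.02% of all tested probe sets called in either direction. The median log2 difference was 0.37 over the 9 and -0.03 over all 5244. Among all 12 without the filter, 7 had both loaded healing arrays above both loaded controls, and 1 had both below. The same held upward for 18.1% and downward for 19.7% of all 8740 non-control probe sets.

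Ctsk, the collagen-cleaving cathepsin, read 356.3 and 147.5 on the loaded control arrays, 2076.4 and 1317.2 in loaded healing, 86.3 and 158.5 in unloaded control, and 1045.6 and 1300.7 in unloaded healing. All 4 healing arrays lay above all 4 control arrays, and the unloaded healing arrays lay below the loaded healing arrays by a narrow margin. In loaded rats the log2 difference with injury was 2.61 ± 0.49 (SE, 2 arrays per group), or 6.10-fold, with a 95% interval of 1.52 to 3.70 and an adjusted limma p of 0.0266. This call rested on few arrays, and the adjusted p was 0.159 without loaded control 2, 0.253 without loaded healing 1 and 0.101 without loaded healing 2. The call was also lost with no filter, at an adjusted p of 0.0503, and with a variance prior that ignores intensity, at 0.0694.

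Ctss, the cathepsin of antigen presentation, read 673.3 and 673.1 in loaded control, 2917.4 and 2735.8 in loaded healing, 734.8 and 770.0 in unloaded control, and 895.0 and 1159.7 in unloaded healing. Only the loaded healing arrays stood far above the rest, and the unloaded healing arrays lay between them and both control groups. With injury in loaded rats, Ctss was higher by 2.00 ± 0.27 log2 units, or 3.99-fold, with a 95% interval of 1.40 to 2.59 and an adjusted limma p of 0.00422. The adjusted p was 0.0707 without loaded healing 1 and 0.0516 without loaded healing 2.

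Ctsb, a broad lysosomal endopeptidase, read 765.8 and 599.1 in loaded control and 1671.7 and 1154.8 in loaded healing. The groups did not overlap, but the log2 difference of 0.99 ± 0.43 had an adjusted limma p of 0.401 and an unadjusted p of 0.0444. The call was therefore not made for Ctsb.

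Ctsl, another broad endopeptidase, had a pair of probe sets that differed from each other. The brighter, S85184_g_at, read 952.6 and 763.4 in loaded control and 922.2 and 903.6 in loaded healing, with a log2 difference of 0.09 ± 0.29. The dim one, rc_AI176595_s_at, read 129.5 and 52.1 in loaded control against 608.3 and 533.6 in loaded healing. Its groups did not overlap, and in the fit without the filter the log2 difference was 2.23 ± 0.54 with an adjusted limma p of 0.146. The data thus give no single value for Ctsl.

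Ctsd, the aspartic protease, was also measured by a pair of probe sets that pointed in opposite directions. The set rc_AI235585_s_at read 419.2 and 357.7 in loaded control and 507.2 and 521.5 in loaded healing, a log2 difference of 0.37 ± 0.47. The set X54467_at read 249.5 and 214.4 in loaded control and 136.6 and 163.9 in loaded healing, a log2 difference of -0.50 ± 0.52. Neither passed, with an adjusted limma p of 0.878 and 0.831.

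Ctsc is the dipeptidyl peptidase that activates granule serine proteases of leukocytes and mast cells. Its probe set D90404_g_at was dim in the controls, at 29.5 and 65.6 in loaded control, and read 333.6 and 320.6 in loaded healing. The unfiltered log2 difference was 2.03 ± 0.47 with an adjusted limma p of 0.120. The companion set D90404_at, made from the same source sequence, read 101.6 and 147.7 in loaded control and 112.3 and 139.5 in loaded healing, so that its groups overlapped.

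Ctsh, an aminopeptidase of the lysosome, read 625.6 and 755.1 in loaded control and 660.9 and 692.5 in loaded healing. The loaded healing values lay inside the control range, and the log2 difference was -0.02 ± 0.40.

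Cst3, the secreted inhibitor, showed no call with injury in loaded rats. The brighter of its probe sets, rc_AI231292_g_at, read 2210.7 and 2534.7 in loaded control and 3119.1 and 3441.2 in loaded healing, a log2 difference of 0.46 ± 0.38 with an adjusted limma p of 0.760. The other set from the same source sequence, rc_AI231292_at, read 328.5 and 516.2 against 290.9 and 501.6, a difference of -0.10 ± 0.51. The first set did not overlap between groups and the second did.

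In injured ligament Ctss was lower with unloading, and no other tested member passed the threshold. In unloaded healing against loaded healing, 0 of the 9 tested member probe sets rose and 1 fell, beside 1.62% of all tested probe sets called. The loaded healing arrays enter this comparison and the one above with opposite sign, so the results are not independent. The median log2 difference was -0.11 over the 9 and 0.06 over all 5244. Of all 12 without the filter, 2 stood wholly above and 6 wholly below loaded healing, beside 21.6% and 16.9% of all probe sets.

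Ctss was lower in unloaded than in loaded healing by 2.70-fold, a log2 difference of -1.43 ± 0.27 with a 95% interval of -2.03 to -0.83 and an adjusted limma p of 0.0297. Leaving out any 1 of the 4 healing arrays ended this call, with adjusted p from 0.0868 to 0.226 in those 4 fits. Median centring, no filter and the prior without the intensity trend ended it too.

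For Ctsk the difference between the healing groups was -0.49 ± 0.49, with a 95% interval of -1.58 to 0.60 and an adjusted limma p of 0.800. The interval runs from a drop of the size seen for Ctss to a rise, so the data neither show a difference for Ctsk nor that there was none. Whether the unloading differences of Ctss and Ctsk are themselves different was not tested.

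Ctsb read 528.7 and 419.2 in unloaded healing, below both loaded healing arrays, and the log2 difference of -1.47 ± 0.43 had an adjusted limma p of 0.172. The dim Ctsl set rc_AI176595_s_at read 181.7 and 81.8 in unloaded healing, also below both loaded healing arrays, at -1.85 ± 0.54 and an adjusted limma p of 0.257 without the filter. The brighter Ctsl set, at 830.6 and 947.9, overlapped loaded healing. Neither Ctsb nor Ctsl passed the threshold.

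The Ctsd pair again ran in opposite directions. Set rc_AI235585_s_at read 321.5 and 187.7 in unloaded healing, a log2 difference of -0.94 ± 0.47 from loaded healing. Set X54467_at read 219.7 and 216.6, a difference of 0.43 ± 0.52. In each set the difference with unloading had the opposite sign to that with injury in loaded rats, and none passed.

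Among the exopeptidases, Ctsc set D90404_g_at read 224.6 and 224.7 in unloaded healing, a log2 difference of -0.46 ± 0.47 from loaded healing. Ctsc set D90404_at read 115.5 and 126.6, within the loaded healing range. Ctsh read 843.0 and 500.0, which enclosed the loaded healing values. These differences were all smaller than their SE.

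For the inhibitor, Cst3 set rc_AI231292_at read 668.9 and 879.8 in unloaded healing, above both loaded healing arrays. Its log2 difference was 0.92 ± 0.51 and did not pass, with an adjusted limma p of 0.582. Set rc_AI231292_g_at read 3307.6 and 2782.2, overlapped loaded healing and differed by -0.11 ± 0.38.

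**Figure D2:**
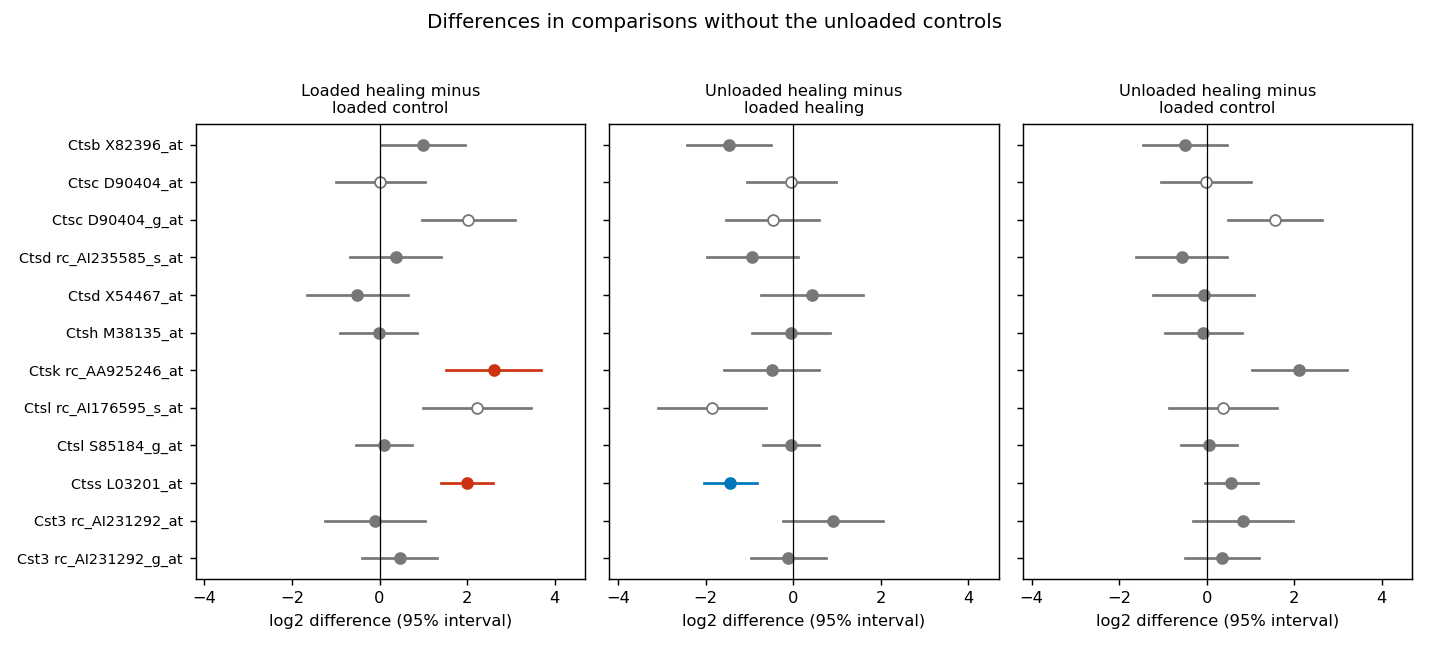
Log2 differences of the member probe sets with 95% intervals for loaded healing against loaded control, unloaded healing against loaded healing and unloaded healing against loaded control, from limma. Red and blue mark calls above and below 0, grey no call, and open symbols probe sets below the filter, fitted without it. The Ctss interval runs from 1.40 to 2.59 with injury in loaded rats and from -2.03 to -0.83 for unloading of healing ligament.

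Against the loaded controls, the unloaded healing ligaments showed no call among the members. With limma, 0 of the 9 tested probe sets passed, beside 0.0763% of all tested probe sets called. Of the 9, 1 had an unadjusted limma p under 0.05, beside 291 of all 5244. Ctsk was that 1, at 2.12 ± 0.49 log2 units or 4.35-fold, with a 95% interval of 1.03 to 3.21, an unadjusted p of 0.0015 and an adjusted p of 0.333. Ctss differed by 0.57 ± 0.27, with an interval of -0.03 to 1.16 and an adjusted p of 0.900. The dim Ctsc set D90404_g_at, not counted as tested, differed by 1.56 ± 0.47 without the filter, with an adjusted limma p of 0.656. Of all 12 probe sets without the filter, 5 had both unloaded healing arrays above both loaded controls and 2 had both below, beside 17.5% and 14.3% of all probe sets. This comparison shares the loaded controls with the first and the unloaded healing arrays with the second.

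The comparisons with unloaded control ligament rest on the 2 arrays that stood apart, and their control ratios are given above. Those rats had also had no sham surgery, so loading, surgery and the state of these arrays cannot be told apart. In unloaded control against loaded control, 0 of the 9 tested member probe sets rose and 2 fell, beside 6.81% of all tested probe sets called. In unloaded healing against unloaded control, 3 rose and 0 fell, beside 7.46%.

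The markers of ligament fibroblasts, the defining cells of the tissue, were low on the unloaded control arrays. Of 10 tested, 0 rose and 9 fell in unloaded against loaded control, with a median log2 difference of -3.64, among them Col1a1 at -6.44 ± 0.20 and the proteoglycan decorin, Dcn, at -4.11 ± 0.32. In unloaded healing against unloaded control 7 rose and 0 fell, with a median of 2.43. Their summed signal was 5884.4 to 7351.7 in unloaded control, against 93518.5 to 114188.4 in loaded control, 108625.2 to 127323 in loaded healing and 55520.1 to 71512.5 in unloaded healing. The Cst3 and Ctsb differences from unloaded control ran in the same directions as these markers. Ctsk, like the markers, was higher in unloaded healing than in unloaded control. Its unloaded and loaded controls overlapped, however, at -0.76 ± 0.49. The part of the fibroblast markers in these differences was not tested.

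Cst3 gave the clearest separation of the unloaded control arrays. Its set rc_AI231292_g_at read 310.5 and 880.2 there, below the range of 2210.7 to 3441.2 on the other 6 arrays. Against loaded control it was lower by 4.20-fold, a log2 difference of -2.07 ± 0.38 with an adjusted limma p of 0.00655. The adjusted p was 0.0563 without loaded control 2 and 0.0517 in a fit to the 2 control groups alone. Its set rc_AI231292_at read 63.1 and 120.7 there, also below the other 6 arrays, at -1.77 ± 0.51 and an adjusted p of 0.0790, and it passed under quantile normalization, at 0.0257, and median centring, at 0.0289.

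Injury in unloaded rats went with higher Cst3 on both probe sets. The log2 difference from unloaded control was 2.42 ± 0.38, or 5.36-fold, for rc_AI231292_g_at, with an adjusted limma p of 0.00213. For rc_AI231292_at it was 2.59 ± 0.51, or 6.04-fold, with an adjusted p of 0.00954, and 0.0750 without unloaded control 1 or 0.0734 without unloaded healing 2. The unloaded healing arrays of rc_AI231292_g_at lay inside the range of the loaded arrays, so the low values are those of the unloaded controls.

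Ctsk rose in this comparison as it did in loaded rats. The log2 difference from unloaded control was 2.88 ± 0.49, or 7.38-fold, with an adjusted limma p of 0.00351. The difference in Ctsk between unloaded and loaded controls was -0.76 ± 0.49, with an adjusted p of 0.465.

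Ctsb read 171.3 and 88.3 on the unloaded control arrays, its lowest values. Against loaded control it was lower by 4.24-fold, a log2 difference of -2.08 ± 0.43 with an adjusted limma p of 0.0133. The adjusted p was 0.103 without loaded control 1, 0.0887 without unloaded control 2 and 0.0691 in a fit to the 2 control groups alone. The difference between unloaded healing and unloaded control was 1.60 ± 0.43 with an adjusted p of 0.0529, and it passed under 5 of 19 alternatives, among them quantile normalization at 0.0212. Ctss, by contrast, read 734.8 and 770.0 on these arrays, above both loaded control values by a small margin.

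The remaining members showed no call in these comparisons. Ctsh read 319.5 and 463.9 in unloaded control, below the loaded controls, at -0.77 ± 0.40. The brighter Ctsl set read 1611.0 and 1279.0, above the other 6 arrays, at 0.72 ± 0.29 from loaded control with an adjusted limma p of 0.217. Both Ctsd sets and both Ctsc sets overlapped the loaded controls, at 491.7 and 320.0, 268.9 and 189.6, 154.9 and 142.1, and 41.1 and 74.0, as did the dim Ctsl set, at 114.8 and 97.2. In unloaded healing against unloaded control, Ctsc set D90404_g_at gave 1.41 ± 0.47 without the filter, with an adjusted limma p of 0.183.

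The difference between the injury effects was tested as an interaction, the effect in unloaded rats minus that in loaded rats. Of the 9 tested member probe sets 0 were higher and 1 was lower, beside 4.84% of all tested probe sets called. That 1 was Ctss, at -1.58 ± 0.38 log2 units with a 95% interval of -2.42 to -0.74 and an adjusted limma p of 0.0411. The Ctss difference with injury was 0.42 log2 units in unloaded and 2.00 in loaded rats. The call was lost under quantile normalization, at an adjusted p of 0.0775, under median centring, at 0.134, and on leaving out any 1 array but unloaded healing 2, at 0.0881 to 0.162. The Cst3 sets gave 2.69 and 1.96, with adjusted p of 0.0762 and 0.0836, and rc_AI231292_at passed under both of those scalings. For Ctsk the value was 0.27 ± 0.69 with an adjusted p of 0.923. The dim Ctsl set, not counted as tested, gave -2.06 ± 0.77 without the filter, with an adjusted limma p of 0.358.

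**Figure D3:**
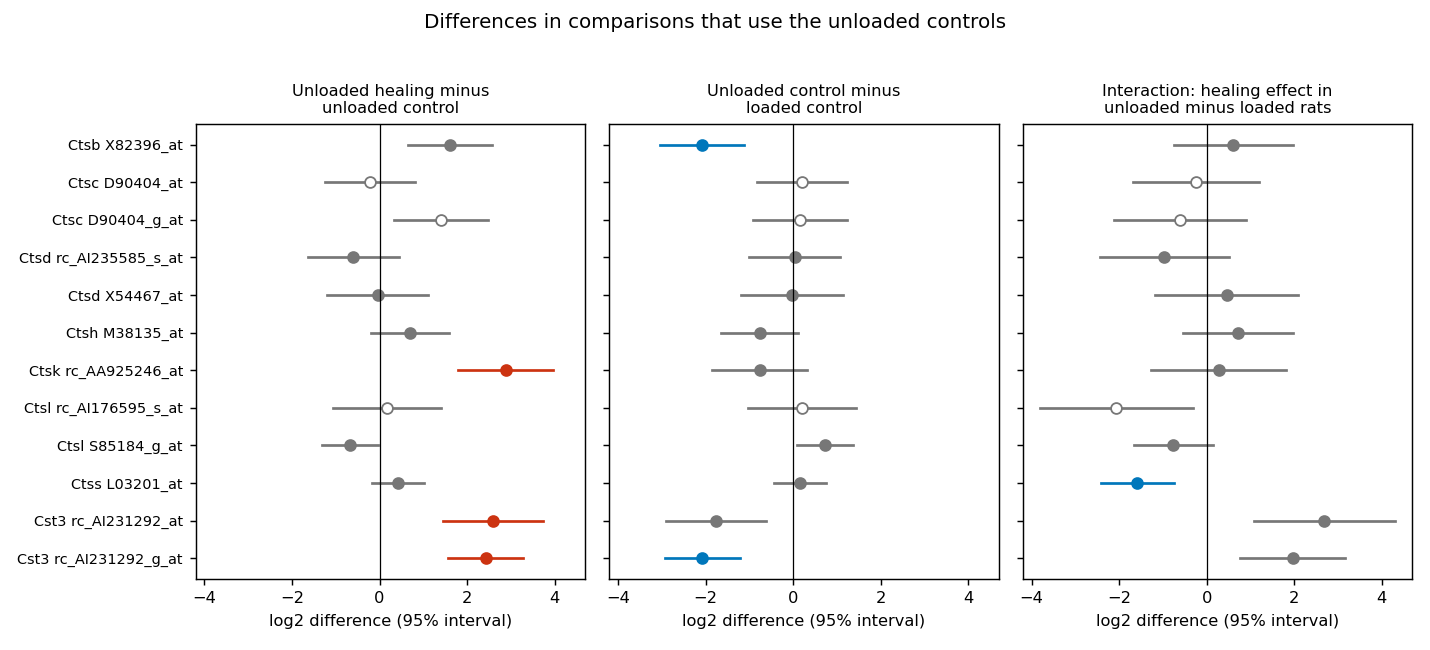
Log2 differences of the member probe sets with 95% intervals for the comparisons that use the 2 unloaded control arrays, and for the interaction, from limma. Red and blue mark calls, grey no call and open symbols probe sets below the filter. Ctsb and Cst3 lie below 0 in unloaded against loaded control, at -2.08 and, for the brighter Cst3 set, -2.07.

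Some macrophage markers were high on the same arrays as Ctss and others were not. Of 24 listed markers 12 were on the array and 9 were tested. Of these 3 rose and 0 fell with injury in loaded rats, and 0 rose and 3 fell in unloaded against loaded healing. They were Mmp12, the macrophage metalloelastase, at 3.85 and -2.74 log2 units, Lyz2, the lysozyme of myeloid cells, at 3.09 and -2.60, and Lgals3, a galectin of activated macrophages, at 1.73 and -1.46. In unloaded against loaded control Lgals3 and Lyz2 fell, at -2.08 ± 0.28 and -1.58 ± 0.24. Mmp12 gave -0.84 ± 0.44 there without passing, and Ctss gave 0.15 ± 0.27. Of the 6 others, Ccl2 and Fcgr2b gave 1.40 and 1.88 with injury in loaded rats without passing, and Cd14, Aif1, C1qc and Ptprc gave -0.24, -0.08, 0.02 and 0.08. The dim Csf1r, the receptor that defines the lineage, read 99.8 and 95.2 in loaded control and 64.5 and 74.0 in loaded healing. The summed signal of the 12 was 7813.1 to 8269.3 in loaded control, 27271.1 to 31638.9 in loaded healing, 7072.8 to 7946.1 in unloaded control and 8714.2 to 9195.9 in unloaded healing. Without Lyz2 these ranges were 6125.0 to 6421.4, 13293.1 to 15378.5, 6494.7 to 7429.2 and 6248.5 to 6773.5. The part of macrophage number in the Ctss values was not tested. In whole ligament, fewer cells of a type and less RNA per cell cannot be told apart.

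Osteoclast markers were examined because Ctsk is best known from that cell. Of 13 listed, 6 were on the array and 3 were tested, and 0 passed by limma in either healing comparison, with 0 at an unadjusted p under 0.05. Acp5, the tartrate-resistant acid phosphatase, differed by 0.10 with injury in loaded rats. The summed signal of the 6 was 1917.8 to 1925.3 in loaded control, 2193.0 to 2405.2 in loaded healing, 1865.2 to 2795.0 in unloaded control and 1698.9 to 1818.7 in unloaded healing. Without Acp5, which read 210.4 on unloaded healing 2, the sums were 1048.1 and 1391.2 in loaded control, 1489.9 and 1638.9 in loaded healing and 1168.4 and 1488.5 in unloaded healing, so that unloaded healing overlapped loaded control. The part of osteoclasts in the Ctsk values was not tested.

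The summed signal of the skeletal muscle markers was higher on the healing arrays, where Ctsk was also high, but few of its members passed. The summed signal was 11090.0 to 11403.8 in loaded control, 15108.5 to 20468.5 in loaded healing, 5841.8 to 6432.3 in unloaded control and 13221.8 to 15327.0 in unloaded healing. Of 11 tested markers 1 rose with injury in loaded rats, the skeletal actin Acta1 at 1.18 ± 0.25, and 1 fell in unloaded against loaded healing, the myosin heavy chain Myh4 at -1.42 ± 0.26. The list median with injury in loaded rats was 0.65, against -0.03 over all tested probe sets. Without passing there, Myh4, Myh7, Tnnt3, Tnnc2 and Myh1 gave 0.99, 0.97, 0.93, 0.66 and 0.65. Pvalb gave -0.81 and Ckm, Tnni2, Myl1 and Atp2a1 gave -0.09, -0.05, -0.02 and 0.03. The part of muscle RNA in the Ctsk values was not tested. No marker of these lists was at 0 on any array.

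**Figure D4:**
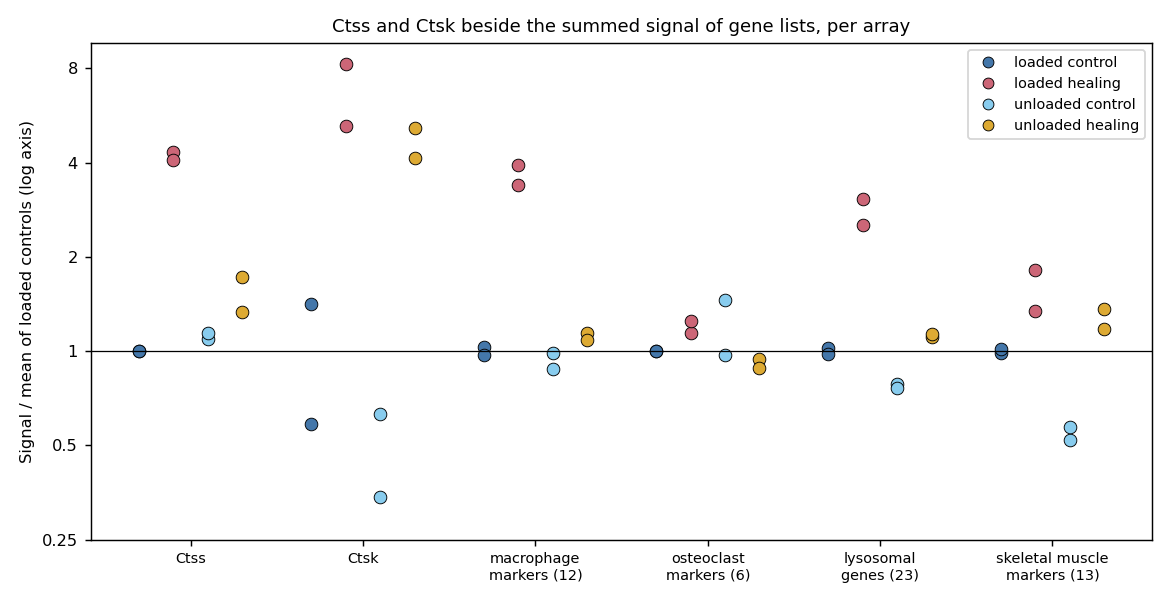
Signal of Ctss and Ctsk and summed signal of the macrophage, osteoclast, lysosomal and skeletal muscle lists on each array, as a ratio to the loaded control mean (log axis). Ctss reached 4.33 and 4.06 and the macrophage sum 3.93 and 3.39 on the loaded healing arrays, whereas on the unloaded healing arrays Ctsk stood at 4.15 and 5.16 and the macrophage sum at 1.14 and 1.08. Lyz2 holds the most signal of the macrophage sum, and Psap that of the lysosomal sum.

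Markers of other cells that the tissue could hold were counted in the same healing comparisons. Of all 5244 tested probe sets, 614 had an unadjusted limma p under 0.05 with injury in loaded rats. With unloading of healing ligament 574 did. Lymphocyte and mast cell markers had 0 of 8 past the threshold by limma in either healing comparison, with 0 at an unadjusted p under 0.05. Of 8 endothelial markers 1 fell in unloaded against loaded healing, the endothelial nitric oxide synthase Nos3, at -1.49 ± 0.31 on 1 of its probe sets. Its other tested sets did not pass, AJ011116_at at 1.47 ± 0.52, AF110508_at at 0.36 ± 0.62 and U02534_at at -0.23 ± 0.44. Of 4 adipocyte markers 1 changed, the lipoprotein lipase Lpl on 1 of 3 probe sets, at 1.95 ± 0.31 with injury in loaded rats and -2.05 ± 0.31 with unloading of healing ligament. Of 4 erythroid markers 0 passed in these comparisons, with 2 at an unadjusted p under 0.05 in each, and 1, the beta globin Hbb-b1, was higher in unloaded healing than in loaded control, at 2.00 ± 0.26. Of 10 ligament fibroblast markers, some also among the matrix proteins below, 2 fell with injury, the matrix protein Comp at -2.74 ± 0.45 and the proteoglycan biglycan, Bgn, at -1.38 ± 0.25. With unloading of healing ligament 2 fell, the collagen chains Col1a2 and Col3a1, at -1.99 ± 0.19 and -1.20 ± 0.23. The other Col3a1 set, M21354_s_at, ran the other way without passing, at 0.70 ± 0.34.

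Other lysosomal genes were counted from a list of 46, of which 23 were on the array and 17 were tested. With injury in loaded rats 2 rose and 0 fell, with a list median of 0.63 against -0.03 over all tested probe sets. They were Psap, the precursor of the saposins that assist sphingolipid breakdown, at 2.95 ± 0.19, and Atp6v0c, a proton pump subunit, at 1.45 ± 0.30. In unloaded against loaded healing 0 rose and 1 fell, Psap at -2.40 ± 0.19, and the median was -0.51 against 0.06. The other 2 Psap probe sets gave -0.49 and -0.21 with injury and 0.71 and 1.18 with unloading, none past the threshold, so the Psap values rest on 1 probe set of 3. The other Atp6v0c set gave -0.21 with injury. The same caution holds for the list median, which takes the brightest probe set of each gene. The summed signal of the 23 was 15109.8 to 15789.2 in loaded control, 39045.5 to 47200.4 in loaded healing and 17172.9 to 17497.2 in unloaded healing. Without Psap these ranges were 12362.9 to 12638.7, 18902.5 to 21010.2 and 12921.6 to 13120.5.

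Among the other proteases and inhibitors there was no call in loaded healing against loaded control or unloaded against loaded healing. Of 13 further cathepsins listed, 2 were on the array and 1 was tested, the placental Ctsj at 0.01 with injury in loaded rats. Of a list of serine proteases, mostly of the granules where cathepsin C activates such enzymes but also holding the membrane peptidase Dpp4, 7 were tested and 0 passed by limma in either healing comparison, with 0 at an unadjusted p under 0.05 for injury and 2 for unloading. Of the protease inhibitors other than cystatin C, 6 were tested and 0 passed. At an unadjusted limma p under 0.05 there were 2 and 1, beside 614 and 574 of all 5244 tested probe sets. Cstb, the intracellular cysteine protease inhibitor stefin B, came nearest, at 1.19 ± 0.27 with injury and an adjusted p of 0.0639. In the comparisons with unloaded control 1 inhibitor rose in each, Cstb in unloaded healing at 1.05 ± 0.27 and the kininogen Kng2 in unloaded against loaded control at 2.37 ± 0.61.

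The MHC class II genes stand downstream of cathepsin S in antigen presentation. Of 8 tested, 1 rose with injury in loaded rats and 1 fell with unloading of healing ligament, in both cases the class II alpha chain RT1-Da, at 1.95 ± 0.23 and -1.87 ± 0.23. The other RT1-Da probe set gave 0.90 ± 0.29 and -0.50 ± 0.29, the same directions without passing. Cd74, the invariant chain that cathepsin S cleaves, differed by 0.07 with injury. The list medians were 0.04 and -0.03, near those of all tested probe sets.

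Matrix proteins that cathepsins can cleave moved in both directions. Of 9 tested, 2 rose and 2 fell with injury in loaded rats, and 1 rose and 4 fell in unloaded against loaded healing. Spp1, the bone and macrophage phosphoprotein osteopontin, had the largest differences, at 4.27 ± 0.33 and -3.78 ± 0.33. Fn1, fibronectin, gave 1.36 ± 0.25 and -1.93 ± 0.25 on its brightest probe set. Its other tested sets did not pass, U82612cds_g_at at -0.99 and 0.56 and U82612cds_at at 0.11 and 0.56. Sparc, a collagen-binding protein, gave -1.66 ± 0.17 and 0.90 ± 0.17 on its brightest probe set. Its set rc_AA946313_s_at gave -1.22 ± 0.25 with injury, an adjusted limma p of 0.0414, and 0.74 ± 0.25 with unloading without passing. The dim set rc_AA891204_s_at, removed by the filter, gave -2.01 and 1.42. Set Y13714_at ran the other way, at 0.11 and -0.56, without passing. Col1a2, which encodes a type I collagen chain, fell by 1.99 on the log2 scale in unloaded against loaded healing.

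**Figure D5:**
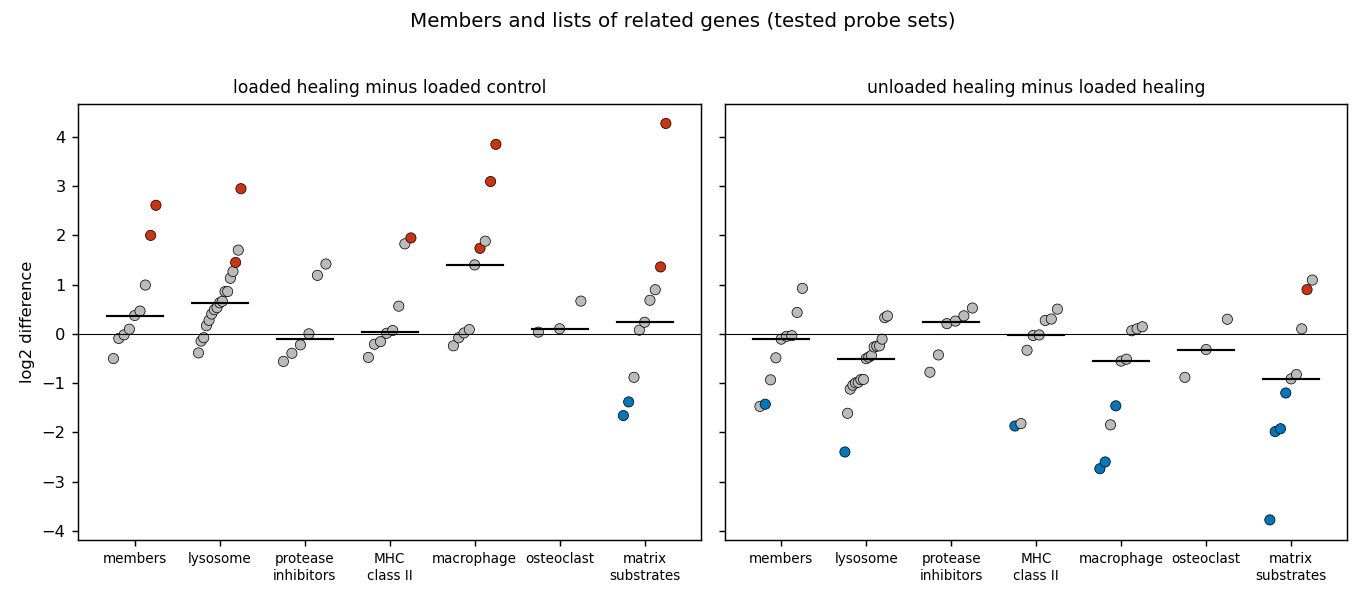
Log2 differences of the tested member probe sets and of the tested genes of the lysosome, protease inhibitor, MHC class II, macrophage, osteoclast and matrix lists in loaded healing against loaded control and unloaded healing against loaded healing, 1 point per gene (the members 1 per probe set), a bar at each median, and red and blue for calls above and below 0. Psap stands at 2.95 and -2.40 and Spp1 at 4.27 and -3.78.

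The probe sets whose log2 signal followed Ctsk and Ctss most closely were listed as a description, over 4166 candidates with 1 symbol. For Ctsk over all 8 arrays they were Cav3, the muscle caveolin, with r = 0.98, Ehmt2, a histone methyltransferase, with r = 0.94, and Acta1 with r = 0.94. Over the 6 arrays without unloaded control they were Mplkip, Camk2d and Gng11, each with r = 0.98. For Ctss over 8 arrays they were Atp5po, a subunit of ATP synthase, with r = 0.99, Odc1, ornithine decarboxylase, with r = 0.98, and Map2k1, a kinase of the MAP kinase pathway, with r = 0.98. Over 6 arrays they were Fcgrt, the neonatal Fc receptor, Fabp5, a fatty acid-binding protein, and Atp5f1e, each with r = 0.99. All points share the 8 arrays and their scaling, and the leading genes changed when the unloaded controls were left out.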

How the data were processed

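Expression was measured in 8 ligament samples, 2 per group, grouped by the titles in the labels. The authors deposited linear signal intensity per probe set, already scaled between arrays; the sources used here name neither software nor probe summary. Every column was used. Gene symbols come from the array's probe table, in which 1473 probe sets had no symbol, 308 had several and 7018 had 1; the 12 member probe sets kept their symbols when matched by identifier to the RefSeq table of assembly GRCr8. Probe sequences and protein sequences were not used here. The number of arrays limits the precision.

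The 59 control probe sets were set aside, 45.8 (the 10th percentile) was added, log2 taken and the dimmest 40% by mean log2 signal removed, which left 5244. The offset shrinks the folds of dim probe sets. limma 3.58.1 in R 4.3.3 fitted 1 mean per group over all 8 arrays, with a variance prior that follows intensity, 4 residual and 5.81 prior degrees of freedom, two-sided tests and Benjamini-Hochberg adjustment over the 5244 within each of 6 comparisons. The code was tested on simulated data.

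The members and the 14 gene lists were chosen with earlier results of these data known. Every member probe set was reported. From each list the counts, the median over the brightest probe set of each gene, and up to 3 genes past the threshold with the largest difference were given; Cd74, Acp5, Cstb, Kng2, Ctsj, Hbb-b1, Col1a1 and Dcn in the control comparisons, and the macrophage and muscle markers without a call were named outside that rule, after their values were seen. Alternatives were quantile normalization, median centring, scaling to 6 spike-in probe sets, a floor in place of the offset, an offset 4 times as large, no filter, a filter at 60%, a prior without the intensity trend, a robust prior, a replicate block, the compared groups alone, a fit without the unloaded controls, and leaving out each array. Promoters are RefSeq windows of GRCr8.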

Additional observations from a re-analysis of the deposited data

Results flagged for a closer look

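In the main fit, the Ctss difference between healing and control ligament was not the same in unloaded and loaded rats. The effect in unloaded rats minus that in loaded rats was -1.58 log2 units, with an adjusted p of 0.0411 from limma, and Ctss was the only member probe set with a call for this difference. The call was lost under quantile normalization, at an adjusted limma p of 0.0775, and under median centring, at 0.134. No filter, at 0.0697, and the prior without the intensity trend, at 0.114, ended it too. Further losses on leaving out arrays are given above. The term uses the 2 unloaded control arrays, which stood apart from the other 6. Those rats had no sham surgery, unlike the loaded controls, so loading and surgery cannot be told apart in it. Ctss read 734.8 and 770.0 on the unloaded control arrays, against 673.3 and 673.1 on the loaded controls. The part of the state of these arrays in the term was not tested.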

How the results depend on the processing

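Over 72 results (a member probe set in 1 comparison, the 3 dim ones included), 1344 alternative values were computed, of which 1300 kept their side of the threshold, 32 lost a call, 12 gained 1 and 0 reversed. Another 52, included in the 1300, changed sign with no call in either setting. In loaded healing against loaded control, the count of member probe sets called went from 2 to 1 with no filter and with the prior without the intensity trend, and from 0 to 2 on leaving out each array. In unloaded healing against loaded healing it went from 1 to 0 under median centring, with no filter and without the trend, and from 0 to 1 with arrays left out. In unloaded against loaded control it went from 2 to 0 in the compared groups alone, to 3 under quantile normalization and median centring, which added Cst3 set rc_AI231292_at, and from 1 to 2 with arrays left out. For the interaction it went from 1 to 0 with no filter and without the trend, and from 0 to 1 with arrays left out; quantile normalization and median centring kept the count of 1 but called Cst3 in place of Ctss. Ctsk and Cst3 set rc_AI231292_g_at in unloaded healing against unloaded control passed in all 19 alternatives run for them.

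With the replicate block, the interaction count was 3 (Ctss and both Cst3 sets), and unloaded healing against unloaded control had 4, adding Ctsb at an adjusted p of 0.0338. The labels do not say that the numbers pair arrays, and the correlations of deviations between groups were 0.000779 to 0.204. The total of calls in loaded healing against loaded control ran from 27 to 126 around 106, in unloaded against loaded healing from 16 to 137 around 85, and in unloaded healing against loaded control from 0 to 7 around 4. For unloaded healing against unloaded control it ran from 309 to 622 around 391, and for unloaded against loaded control from 282 to 590 around 357. Scaling to the spike-in controls moved the median of all probe sets from -0.03 to 0.34 in loaded healing against loaded control and from 0.06 to -0.40 in unloaded against loaded healing, with 84 higher and 22 lower of 106 in place of 54 and 52, and 18 higher and 119 lower of 137 in place of 40 and 45. The calls of Ctsk and Ctss in these comparisons held under it. A group with 1 array left out was assumed to vary like the others. The intervals given with the results show what 2 arrays per group can resolve.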
